A study of Mus musculus with 27 samples.

Results

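The genes described here are 10 immediate early genes: Egr1, Egr2 and Egr3 of the EGR family, Nr4a1, Nr4a2 and Nr4a3 of the NR4A family, Klf4 and Klf6 of the KLF family, Ier2, and the phosphatase gene Dusp1. They were chosen by name, and their values were read from the deposited expression table, in which all 10 were found among 35604 genes. All 10 were also among the 12147 genes that reached 1 TPM, a length-scaled measure of transcript abundance, in 3 or more libraries and were tested. The study asked what IL-21 does to B cells directly, and it measured polyadenylated RNA by sequencing in 27 libraries, 3 for each of 9 groups. All libraries came from B cells of the spleen of wild-type mice. The naive group was not cultured. The other 8 groups were cultured for 6 h or 24 h with an antibody that activates the receptor CD40 (clone HM40-3, 1 µg/mL), either alone, with IL-4 (12.5 ng/mL), with IL-21 (50 ng/mL), or with both cytokines at these doses. Every cultured group therefore received anti-CD40, and with no cultured group left unstimulated, the effects of culture and of anti-CD40 cannot be told apart. The labels do not say that the replicates came from separate animals, so a p-value here measures only the spread between these libraries, which may be technical.

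Immediate early genes are transcribed within minutes of a signal without new protein synthesis, mostly through kinase cascades that act on transcription factors already present in the cell, such as the serum response factor and CREB, and their messages are short-lived. In B cells EGR and NR4A genes are induced by the antigen receptor, NR4A1 is widely used as a reporter of recent receptor signalling, and EGR2 and EGR3 restrain as well as drive lymphocyte activation. KLF factors are tied to quiescence and differentiation, and DUSP1 is a feedback inhibitor of the MAP kinases that induce many of these genes. Such genes are also known to respond to the handling of tissue, which matters for cells taken from an organ.

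In the files' build, GRCm38, Egr2 (ENSMUSG00000037868) lies at chr10:67535475-67542188 and Egr3 (ENSMUSG00000033730) at chr14:70077203-70082614, both on the plus strand. Egr1 carries the identifier ENSMUSG00000038418. Nr4a1 (ENSMUSG00000023034) lies at chr15:101254269-101274795 on the plus strand, Nr4a2 (ENSMUSG00000026826) at chr2:57106830-57124003 on the minus strand, and Nr4a3 (ENSMUSG00000028341) at chr4:48045153-48086447 on the plus strand. Klf4 (ENSMUSG00000003032) lies at chr4:55527143-55532466 on the minus strand and Klf6 (ENSMUSG00000000078) at chr13:5861482-5870394 on the plus strand. Ier2 (ENSMUSG00000053560) lies at chr8:84661331-84662852 on the minus strand. The annotated span of Dusp1 (ENSMUSG00000024190), chr17:26505590-26562128 on the minus strand, overlaps Ergic1 and Gm8225 on the other strand. It also overlaps AC122252.1 and AC122252.4 on the same strand, where strand cannot separate reads. Whether the quantification used strand is not given in the sources used here, so reads shared between Dusp1 and a gene on the other strand cannot be told apart.

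The sequence before the transcription start was available from RefSeq (GRCm38.p6) for 7 of the 10 genes, Egr2, Nr4a1, Nr4a2, Nr4a3, Klf4, Klf6 and Dusp1, in 11 windows, since Egr2 has 5 annotated starts. The 4 stretches below are shown because their genes behaved differently in these data: Egr2 rose with IL-4 and IL-21, Nr4a1 and Klf6 fell together, and Dusp1 had the largest difference on the log2(TPM + 1) scale between uncultured cells and cells with IL-4 at 24 h. Each is written 5′ to 3′ on the strand of its gene, and holds no base of an annotated exon. Those of Egr2, Nr4a1 and Dusp1 lie inside the annotated span of their gene, before an internal start. Capitals mark letters of the CArG box (the serum response factor motif), of the CREB motif TGACGTCA or its core TGACG, and of the EGR motif GCGNGGGCG, on either strand. The stretch for Egr2 is chr10:67537619-67537868, that for Nr4a1 is chr15:101266596-101266845 and that for Klf6 is chr13:5861239-5861481, all on the plus strand. The stretch for Dusp1 is chr17:26508520-26508722 on the minus strand. The Klf6 stretch ends 7 bases and the Dusp1 stretch 47 bases before the start, and positions given below are counted from the start.
Egr2: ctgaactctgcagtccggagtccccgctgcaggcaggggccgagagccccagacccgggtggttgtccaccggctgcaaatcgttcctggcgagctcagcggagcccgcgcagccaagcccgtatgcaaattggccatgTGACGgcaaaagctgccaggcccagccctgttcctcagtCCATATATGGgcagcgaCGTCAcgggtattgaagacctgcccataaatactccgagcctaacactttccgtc
Nr4a1: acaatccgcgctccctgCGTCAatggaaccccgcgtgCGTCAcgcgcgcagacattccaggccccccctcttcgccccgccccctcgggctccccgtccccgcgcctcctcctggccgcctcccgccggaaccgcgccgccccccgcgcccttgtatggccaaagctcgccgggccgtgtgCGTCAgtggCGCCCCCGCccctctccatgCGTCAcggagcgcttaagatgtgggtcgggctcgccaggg
Klf6: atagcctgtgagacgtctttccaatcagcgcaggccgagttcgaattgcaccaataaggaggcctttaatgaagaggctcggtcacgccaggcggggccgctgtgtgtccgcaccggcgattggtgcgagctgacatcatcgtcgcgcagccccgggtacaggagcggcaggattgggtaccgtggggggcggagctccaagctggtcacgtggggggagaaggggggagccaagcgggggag
Dusp1: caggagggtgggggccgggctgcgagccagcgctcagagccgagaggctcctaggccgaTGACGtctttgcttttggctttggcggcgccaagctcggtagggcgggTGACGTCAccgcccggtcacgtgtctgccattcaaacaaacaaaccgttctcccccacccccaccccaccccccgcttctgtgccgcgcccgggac

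In the 250 bases before the start, 4 of the 5 Egr2 windows held a CArG box, a motif found in 1.47% of the 32841 windows of the same length over all genes. These 4 are not independent, since the windows that begin at 67537619, 67537620 and 67537680 overlap and hold the same box, CCATATATGG. The window that begins at 67537316 holds another, CCTTTTTTGG. In the Egr2 stretch shown, the box lies 72 to 63 bases before the start and a CREB core lies on each side of it. Nr4a1 held 4 CREB cores and 1 EGR motif, which overlaps a GC box (GGGCGG). A CREB core was in 17.8% of all windows and an EGR motif in 4.70%. Dusp1 held a full CREB motif, found in 1.55% of all windows, 143 to 136 bases before its start. It is made of 2 overlapping CREB cores, and a further core lies at 191 to 187. Klf6 held none of these motifs and only a GC box, which was in 32.7% of all windows. Nr4a2 and Nr4a3 held 4 CREB cores each and Klf4 held 1. An EGR motif was found once in Nr4a2 and at 2 places in Klf4. The NR4A motif AAAGGTCA (1.34% of all windows), the AP-1 motif TGANTCA (6.75%), the STAT motif TTCNNNGAA (7.02%), the STAT motif with a spacer longer by 1 base (5.85%) and the NF-kB motif (3.90%) were in none of the 11 windows. A match is a match of letters only, and the lack of one says only that these letters are not in this window.

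Markers of the labelled cell type were abundant. All 10 B cell markers were tested, and their summed level was 5893 to 9559 TPM in naive libraries. It was also lower at 6 h, at 3032 to 5321 TPM with anti-CD40 alone and 1434 to 2366 TPM with IL-21. After 24 h with anti-CD40 alone it was 6005 to 7377 TPM. Markers of other cells were also present in the naive libraries. Erythroid and platelet markers summed to 1012 to 1797 TPM there, against 153 to 190 TPM after 6 h and 34.9 to 40.2 TPM after 24 h with anti-CD40 alone. Macrophage and monocyte markers, of which 7 of 9 were tested, summed to 86.5 to 110 TPM, against 10.8 to 12.5 and 5.10 to 9.20 TPM. Plasma cell markers summed to 97.87 to 197.1 TPM, against 36.33 to 68.3 and 12.55 to 21.84 TPM. Endothelial and stromal markers, of which 1 of 6 was tested, summed to 21.73 to 50.1 TPM. They were at 4.414 to 9.593 TPM after 6 h but at 31.85 to 49.03 TPM after 24 h with anti-CD40 alone. T cell markers summed to 11.7 to 24.1 TPM and NK cell markers to 1.19 to 2.34 TPM in naive libraries. Neutrophil markers, of which 0 of 6 were tested, summed to 0.0554 to 0.371 TPM there. Over genes, libraries of a group correlated at 0.927 to 0.982, and libraries of different groups at 0.823 to 0.972. Mitochondrial genes took 5.50% to 13.5% of the TPM, with naive replicate 1 at 5.50% beside 12.7% and 13.5% in the other two naive libraries. Replicate 1 of IL-4 at 24 h stood apart from its group at 7.89% beside 11.6% and 11%, and the calls of the 10 genes that change without these 2 libraries are given both ways. These 2 were not the only libraries to stand apart. With IL-4 at 6 h, replicate 3 was at 6.91% beside 10.2% and 10.6%. With IL-21 at 6 h, replicate 3 was at 7.27% beside 10.9% and 10.2%. Over all tested genes, the SD of deviations from the group mean was largest in IL-4 24 h replicate 1, at 0.499. Naive replicate 1, at 0.417, lay below IL-21 24 h replicate 3, at 0.445. Of 270 values of the 10 genes none was 0. The number of reads per library is unknown from TPM, so no counting error can be given.

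Most of the 10 genes were at their highest in the uncultured cells. Egr1, Egr3, Nr4a1, Klf4, Klf6, Ier2 and Dusp1 all had naive means above those of every cultured group, and in 6 of these 7 the lowest naive library exceeded every cultured library, the exception being Egr3. Of all 12147 tested genes, 4.39% had naive libraries that all lay above every cultured library. Nr4a3, Egr2 and Nr4a2 did not share this pattern. After 6 h with anti-CD40 alone, 7 of the 10 genes were lower than in naive cells and 1, Nr4a3, was higher, where 29.9% of all tested genes changed. The median difference over the 10 genes was -1.94 on the log2(TPM + 1) scale, beside 0.06 over all tested genes. All tests are from limma with Benjamini-Hochberg adjustment over the 12147 genes, a gene being called at an adjusted p below 0.05, and differences on this scale understate those of weakly expressed genes. Since these are bulk libraries, fewer cells expressing a gene and less RNA per cell cannot be told apart. No library was taken between the uncultured cells and 6 h, so a rise that had ended before 6 h could not be seen. A lower level at 6 h therefore does not show that a gene was not induced earlier.

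The same 7 genes were lower at 6 h in the other stimulations. With IL-4 added, 7 were lower and 2 higher (38.6% of all genes changed), with IL-21 7 lower and 1 higher (44.7%), and with both cytokines 7 lower and 2 higher (44.4%). The gene that joined Nr4a3 among the higher ones was Egr2 with IL-4 and with both cytokines. Nr4a2 is left out of the count with IL-21, the group through which it entered the test. At 24 h, 7 genes were lower and none higher with anti-CD40 alone (26.8% of all genes changed), and 8 lower and none higher with IL-4 (42.2%). With IL-21, 6 were lower and 1 higher (50.5%), and with both 8 were lower and 1 higher (45.7%). Egr3 was not called with anti-CD40 alone (-0.29, adjusted p = 0.541) or with IL-21 (-0.08, adjusted p = 0.855). The lower genes with anti-CD40 alone, IL-4 and both include Nr4a2, at means of only 0.156, 0.0766 and 0.166 TPM, beside 0.619 TPM in naive cells. The higher genes at 24 h were Nr4a3 with IL-21, at 0.53 (adjusted p = 0.0202, and 0.20, adjusted p = 0.343, with median-of-ratios rescaling of the libraries), and Egr2 with both cytokines, at 2.71 ± 0.49 (adjusted p = 9.08e-05). The median over the 10 genes ranged from -3.00 with IL-4 at 24 h to -1.40 with IL-21 at 24 h, beside medians over all genes of -0.07 and 0.49. These 8 comparisons share the naive libraries and are not independent of each other. With that rescaling the medians over all genes at 24 h went from 0.25 to 0.02 with anti-CD40, from 0.49 to 0.01 with IL-21 and from 0.33 to 0.02 with both, and the shares of higher genes among all calls from 70.7% to 44.9%, from 78.3% to 50.0% and from 70% to 50.2%. No difference of the 10 genes changed its sign past the threshold under it, and Egr3 was then also lower than in naive cells at 24 h with anti-CD40 (-0.60, adjusted p = 0.0373) and with IL-21 (-0.66, adjusted p = 0.0157). With IL-4 at 24 h, Egr2 was then higher (1.19, adjusted p = 0.0316) and Nr4a3 lower (-0.45, adjusted p = 0.0286). Without naive replicate 1 and IL-4 24 h replicate 1, every call against naive cells was kept, Nr4a2 with IL-21 at 6 h excepted, and Nr4a3 with IL-4 at 24 h was also called lower (-0.63, adjusted p = 0.0153).

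**Figure D1:**
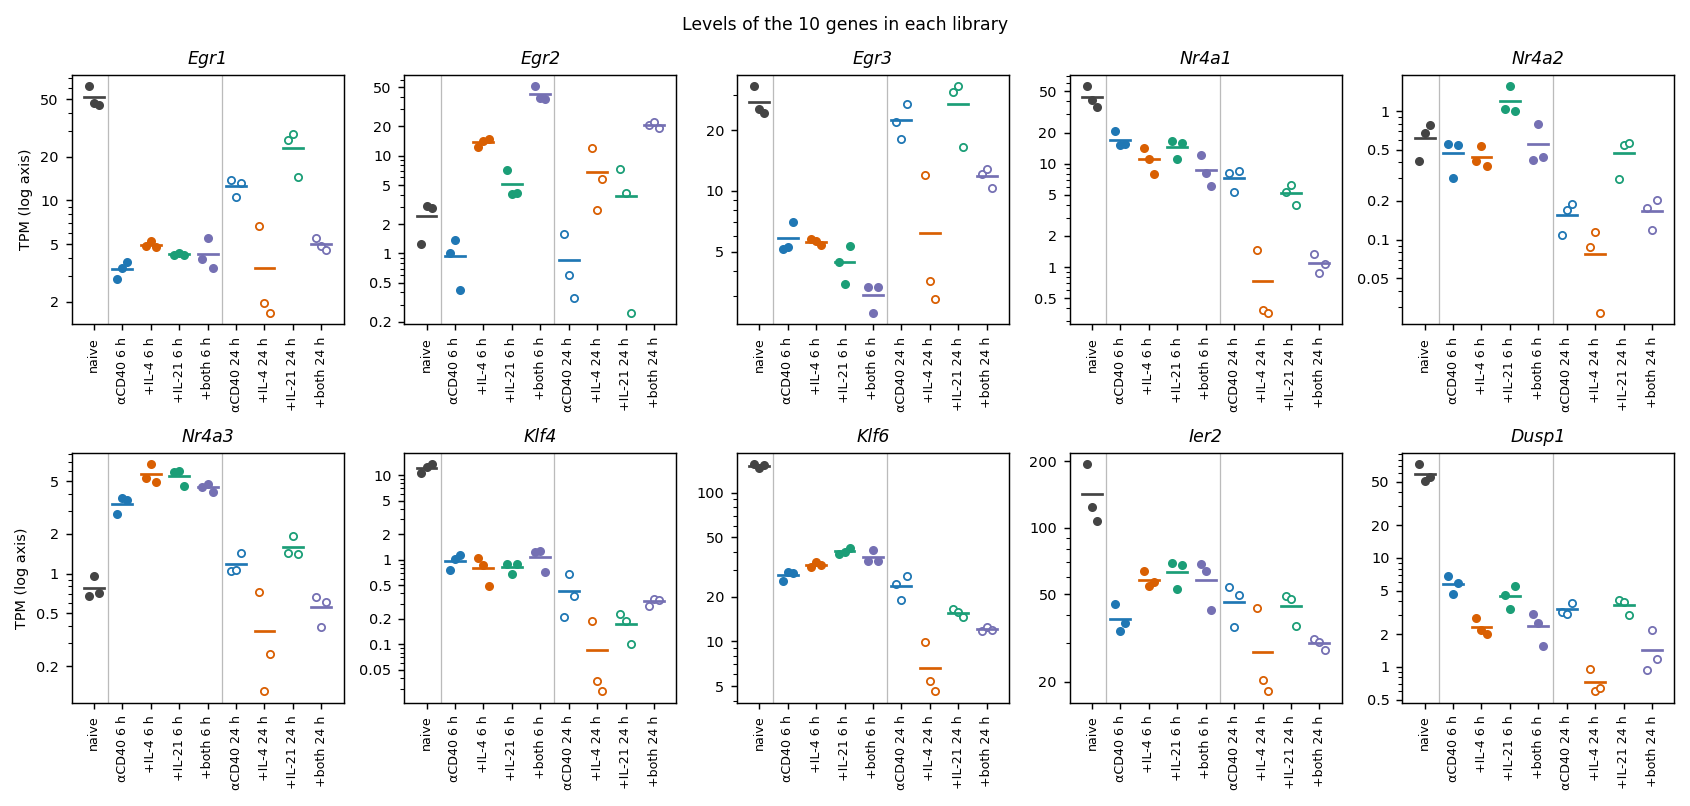
Level of each of the 10 genes in TPM (log axis, a separate scale in each panel) in the 27 libraries: each point is a library, filled for naive cells and 6 h and open for 24 h, and each bar is the mean of a group of 3. The naive libraries are the highest in the panels of Egr1, Nr4a1, Klf4, Klf6, Ier2 and Dusp1, while Egr2 is highest with both cytokines at 6 h and Nr4a3 is higher at 6 h than in naive cells.

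The high naive values came with those of some genes known to respond to tissue handling and heat. Fos, a partner of the JUN proteins in AP-1, had a naive mean of 310 ± 105 TPM (SD, n = 3) and 0.953 TPM after 6 h with anti-CD40 alone. Hspa1b, which encodes an inducible HSP70 chaperone, fell from a naive mean of 674 ± 172 to 2.71 TPM, a log2(TPM + 1) difference of -7.50 (adjusted p = 1.5e-14). Hspa1a stood at 342 ± 54.1 TPM in naive cells and 2.35 TPM at 6 h. Over the 18 tested genes of a dissociation and heat stress list, 9 fell and 4 rose at 6 h. The whole list summed to 3526 to 4118 TPM in naive libraries and 2707 to 2962 TPM after 6 h with anti-CD40 alone. At 6 h it summed to 4151 to 4421 TPM with IL-21 and 4254 to 4394 TPM with both cytokines, above every naive library. As a sum, the list was therefore not highest in naive cells. It also holds other chaperone genes, such as Hspa8 and Hsp90ab1, so its sum does not follow Fos, Hspa1a and Hspa1b alone. Fos, Fosb, Jun, Junb and Atf3 are also in the list of other immediate early genes. Of 45 other immediate early genes, 16 fell and 7 rose at 6 h, with a median of -0.33. Of all tested genes, 13.3% fell and 16.6% rose after 6 h with anti-CD40 alone, with a median of 0.06. All 8 tested erythroid and platelet markers and 4 of 7 macrophage and monocyte markers also fell. The part that the isolation of the cells, or the other cells in the naive libraries, had in the naive levels of the 10 genes was not tested.

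**Figure D2:**
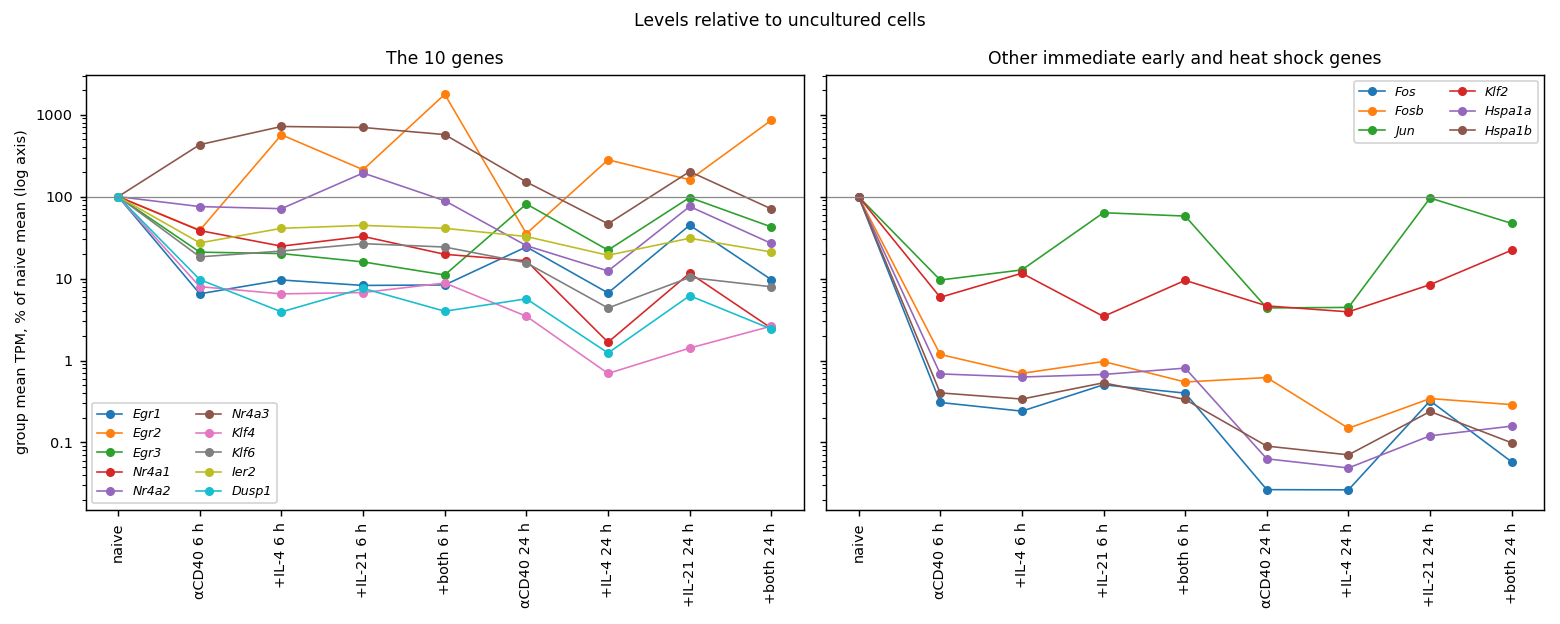
Mean TPM of each group as a percentage of the naive mean (log axis), for the 10 genes on the left and for Fos, Fosb, Jun, Klf2, Hspa1a and Hspa1b on the right; lines join the means of 1 gene and carry no order in time. Klf4, Klf6 and Dusp1 stay below 30% in every cultured group, Nr4a3 and Egr2 rise above 100%, and Fos, Fosb, Hspa1a and Hspa1b stay near or below 1%, whereas Jun returns close to 100% with IL-21 at 24 h.

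Egr1, a zinc finger activator that responds to ERK signalling, was at 61.7, 47.3 and 45.2 TPM in the naive libraries. After 6 h it was at 2.88, 3.44 and 3.73 TPM with anti-CD40 alone, 4.82, 5.23 and 4.78 with IL-4, 4.23, 4.32 and 4.17 with IL-21, and 3.94, 5.52 and 3.43 with both. All 6 h libraries lay below all naive ones, and the difference with anti-CD40 alone was -3.58 ± 0.29 (SE, adjusted p = 3.06e-09). At 24 h Egr1 stood at 13.9, 10.6 and 13.1 TPM with anti-CD40 and at 26.0, 28.5 and 14.6 TPM with IL-21, but at 6.69, 1.95 and 1.67 with IL-4 and 5.53, 4.86 and 4.58 with both. The groups without IL-4 were thus higher at 24 h than any group at 6 h, with no overlap, and the groups with IL-4 were not. From 6 h to 24 h Egr1 rose by 1.63 ± 0.29 with anti-CD40 (adjusted p = 0.000306) and by 2.15 ± 0.29 with IL-21 (adjusted p = 6.41e-06). It did not pass the test with IL-4 (-0.60, adjusted p = 0.143), where the value is -1.08 (adjusted p = 0.000454) without naive replicate 1 and IL-4 24 h replicate 1.

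Adding IL-4 lowered Egr1 at 24 h, by -1.78 ± 0.29 without IL-21 (adjusted p = 9.45e-05) and by -1.96 ± 0.29 with it (adjusted p = 8.02e-05). The groups did not overlap in either comparison. At 6 h the IL-4 difference was 0.45 (adjusted p = 0.654), and the change of the IL-4 effect between the times was itself called, at -2.23 ± 0.41 (adjusted p = 0.00265). In the presence of IL-21 this change was -1.95 ± 0.41 (adjusted p = 0.0133), and it was no longer called without IL-21 24 h replicate 2 or without replicate 2 of both cytokines at 6 h, with values from -2.24 to -1.78 over all libraries left out. Adding IL-21 gave 0.78 ± 0.29 at 24 h, although all IL-21 libraries lay above all anti-CD40 ones, and this missed the threshold (adjusted p = 0.0553). Without naive replicate 1 and IL-4 24 h replicate 1, neither of which is in the groups compared, it was called (0.78, adjusted p = 0.00411). In order of mean level, naive cells, IL-21 at 24 h and anti-CD40 at 24 h stood apart from each other and from the rest, and the other 6 groups overlapped with their neighbours.

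Egr2, a zinc finger factor linked to lymphocyte tolerance and differentiation, followed a different order. It was at 1.26, 3.04 and 2.94 TPM in naive cells and at 1.02, 1.38 and 0.420 TPM after 6 h with anti-CD40 alone. With IL-4 it reached 12.2, 14.3 and 14.7 TPM, with IL-21 7.21, 4.04 and 4.19 TPM, and with both cytokines 51.8, 38.7 and 37.9 TPM. All libraries with both cytokines lay above those with IL-4, which lay above those with IL-21, which lay above those with anti-CD40 alone. The mean with both was 1770% of the naive mean. At 24 h the values were 1.60, 0.608 and 0.354 TPM with anti-CD40, 11.9, 2.79 and 5.73 with IL-4, 7.27, 4.13 and 0.246 with IL-21, and 20.7, 22.0 and 19.4 with both. The group with both cytokines again stood above all others, while the IL-21 libraries ranged from below the lowest naive library to above the highest.

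Adding IL-4 to anti-CD40 raised Egr2 by 2.95 ± 0.49 at 6 h (adjusted p = 0.000352) and by 1.95 ± 0.49 at 24 h (adjusted p = 0.00428). In the presence of IL-21 the IL-4 differences were 2.86 ± 0.49 (adjusted p = 0.000847) and 2.53 ± 0.49 (adjusted p = 0.00149). Adding IL-21 to anti-CD40 raised Egr2 by 1.66 ± 0.49 at 6 h (adjusted p = 0.0268). That call was lost when any IL-21 6 h library, or replicate 1 or 3 of anti-CD40 at 6 h, was left out, with values from 1.43 to 1.82. In the presence of IL-4 the IL-21 difference was 1.56 ± 0.49 at 6 h, which was not called (adjusted p = 0.113) although the groups did not overlap, and 1.65 ± 0.49 at 24 h (adjusted p = 0.0198). The 24 h call was lost without replicate 2 or 3 of IL-4 at 24 h or replicate 2 of both cytokines at 24 h (1.22 to 2.10). The interaction of the cytokines was -0.10 ± 0.69 at 6 h (adjusted p = 1) and 0.58 ± 0.69 at 24 h (adjusted p = 0.671), so on this log scale a departure from additivity was not detectable.

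Egr3, a close relative of Egr2, was at 33.1, 25.6 and 24.3 TPM in naive cells, and at 5.17, 5.26 and 7.02 TPM after 6 h with anti-CD40. At 6 h it was at 5.75, 5.64 and 5.37 TPM with IL-4, 4.43, 3.47 and 5.35 with IL-21, and 3.35, 2.48 and 3.35 with both. The group with both cytokines had the lowest mean of the 9 groups, and its libraries lay below those of the other 6 h groups. At 24 h it was back at 22.1, 18.2 and 27.1 TPM with anti-CD40 and at 31.1, 33.2 and 16.6 TPM with IL-21, both overlapping the naive libraries. With IL-4 at 24 h it was at 12, 3.56 and 2.91 TPM, and with both at 12.2, 12.9 and 10.3 TPM. The rise from 6 h to 24 h was 1.78 ± 0.32 with anti-CD40 (adjusted p = 0.000326), 2.32 ± 0.32 with IL-21 (adjusted p = 7.36e-06) and 1.66 ± 0.32 with both (adjusted p = 0.000411).

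Adding IL-4 lowered Egr3 at 24 h by -1.92 ± 0.32 (adjusted p = 0.000112), and by -1.07 ± 0.32 in the presence of IL-21 (adjusted p = 0.0462), a call that leaving out any of 19 libraries in turn could end (-1.38 to -0.90). Adding IL-21 to anti-CD40 and IL-4 raised it at 24 h by 1.05 ± 0.32 (adjusted p = 0.0228), but the groups overlapped through replicate 1 of IL-4. That call was lost without replicate 2 or 3 of IL-4 at 24 h or replicate 1 or 2 of both cytokines at 24 h (0.73 to 1.60). Since the other EGR genes moved differently, the makeup of the family changed. TPM is scaled per length, so levels can be set side by side: Egr2 was 3.13% ± 1.57 (SD, n = 3) of the summed EGR level in naive cells, 9.55% after 6 h with anti-CD40, 56.5% with IL-4, 36.7% with IL-21 and 85.1% with both. Egr4 was not tested and had a naive mean of 0.00792 TPM.

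The EGR partner Nab2, a corepressor that binds EGR proteins, differed from the EGR genes in its pattern. It had a naive mean of 26.0 ± 3.15 TPM and stood at 14.2 ± 4.05 TPM with anti-CD40 at 24 h, against 40.1 ± 6.81 TPM with IL-21. The IL-21 difference at 24 h was 1.46 (adjusted p = 8.41e-05) without IL-4 and 1.97 (adjusted p = 2.4e-06) with it. Of 13 tested genes in the list of EGR relatives and partners, 2 rose and none fell with IL-21 at 24 h, 6 rose and none fell with IL-21 added to IL-4, and 7 fell and none rose with IL-4 added to anti-CD40 at 24 h. Over all tested genes 17.8% rose and 6.33% fell in the first of these comparisons, 21.8% rose and 2.39% fell in the second, and 8.28% rose and 23.1% fell in the third. That split depends on the scaling: with rescaling, the second gave 1 riser and no faller in the list (10.1% and 11.7% of all genes) and the third 6 fallers and no riser (16.3% and 19.2% of all genes fell and rose). Without naive replicate 1 and IL-4 24 h replicate 1, the second gave 9 risers (43.4% of all genes rose) and the third 10 fallers (40.2% fell).

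Nr4a1, an orphan nuclear receptor induced by antigen receptor signals, was at 56.5, 41.1 and 35.5 TPM in naive cells. After 6 h it was at 20.8, 15.0 and 15.4 TPM with anti-CD40, 14.2, 11 and 7.89 with IL-4, 16.7, 11.2 and 15.7 with IL-21, and 12.2, 8.08 and 6.05 with both. All lay below the naive libraries, and no library with IL-4, alone or with IL-21, reached the range of anti-CD40 alone. At 24 h it was at 8.06, 5.36 and 8.50 TPM with anti-CD40 and 5.32, 6.21 and 3.96 with IL-21, but at 1.48, 0.387 and 0.360 with IL-4 and 1.34, 0.874 and 1.08 with both. The groups with IL-4 were the lowest at 24 h, apart from all others and overlapping each other. The fall from 6 h to 24 h was -1.13 with anti-CD40 (adjusted p = 0.00538) and -2.81 with IL-4 (adjusted p = 2.01e-07). The difference made by IL-4 at 24 h was -2.29 ± 0.28 (adjusted p = 2.6e-06) and -1.54 ± 0.28 in the presence of IL-21 (adjusted p = 0.000829). At 6 h it was -0.61 (adjusted p = 0.378), and the change of the IL-4 effect between the times was -1.68 ± 0.40 (adjusted p = 0.013). IL-21 made no called difference to Nr4a1 in the 4 comparisons, but with rescaling its value at 24 h with anti-CD40 was -0.65 (adjusted p = 0.0328), against -0.43 (adjusted p = 0.291).

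Nr4a3, a related receptor with functions that overlap those of Nr4a1, went the other way at 6 h. Naive libraries held 0.680, 0.966 and 0.709 TPM. After 6 h the values were 2.82, 3.76 and 3.58 TPM with anti-CD40, 5.27, 6.72 and 4.93 with IL-4, 5.89, 6.00 and 4.56 with IL-21, and 4.54, 4.78 and 4.15 with both. Every 6 h library lay above every naive one, and the groups with a cytokine lay above anti-CD40 alone. The IL-21 group overlapped both other cytokine groups, and the libraries with both cytokines lay below those with IL-4. The rise over naive cells was 1.29 ± 0.18 with anti-CD40 (adjusted p = 8.95e-06) and 1.89 with IL-4 (adjusted p = 2.61e-08). By 24 h the values were 1.05, 1.06 and 1.44 TPM with anti-CD40, 0.722, 0.129 and 0.246 with IL-4, 1.44, 1.92 and 1.40 with IL-21, and 0.665, 0.394 and 0.609 with both. The 2 groups with IL-4 were the lowest, with means below that of naive cells.

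IL-21 raised Nr4a3 at 6 h by 0.56 ± 0.18 (adjusted p = 0.0496), a call at the edge of the threshold that 22 of the libraries could end when left out (0.47 to 0.67), and with the replicate number as a block the adjusted p was 0.0526. With rescaling it was 0.46 (adjusted p = 0.0631), and with a pseudocount of 0.1 it was 0.68 (adjusted p = 0.25). IL-4 lowered Nr4a3 at 24 h by -0.70 ± 0.18 (adjusted p = 0.00649) and, with IL-21 present, by -0.73 ± 0.18 (adjusted p = 0.0151). The first of these calls was lost without replicate 2 of IL-4 (-0.88 to -0.57), and the second without replicate 2 of IL-21 or of both cytokines (-0.78 to -0.64). The IL-4 difference at 6 h was 0.60 (adjusted p = 0.0811, and 0.0321 without the 2 replicate 1 libraries), of the opposite sign, and its change to 24 h was -1.29 ± 0.26 (adjusted p = 0.0051).

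Nr4a2, the remaining receptor of the family, was low throughout, between 0.0269 and 1.57 TPM, and reached 1 TPM only in the IL-21 group at 6 h, through which it entered the test. The values there are given as a description with no test, since the gene was bound to be high in the group that let it in. It stood at 1.04, 1.57 and 1.00 TPM, against 0.557, 0.300 and 0.547 with anti-CD40 alone, with no overlap. Nr4a1 made up 96.8% ± 1.19 (SD, n = 3) of the summed NR4A level in naive cells and 81.2%, 63.8%, 68.0% and 62.4% at 6 h with anti-CD40, IL-4, IL-21 and both. Nr4a3 rose from 1.79% ± 0.553 of the sum in naive cells to 33.5% at 6 h with IL-4.

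Of 12 tested NR4A partners and candidate targets, 3 rose and none fell with IL-21 at 6 h, where 7.43% of all genes rose and 4.68% fell. The largest difference was that of Batf, an AP-1 family factor, at 3.29 on the log2 scale. IL-4 added to anti-CD40 at 24 h moved 3 of the 12 up and 3 down, where 31.4% of all genes changed, and 6 were down without the 2 replicate 1 libraries. The share of all genes that fell without those libraries is given with the EGR partners.

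Klf4, a factor that restrains B cell proliferation, was at 10.6, 12.6 and 13.5 TPM in naive cells. No cultured library exceeded 1.28 TPM. After 6 h with anti-CD40 it was at 0.748, 1.03 and 1.14 TPM, a difference of -2.74 ± 0.17 (adjusted p = 4.88e-11). The 6 h groups overlapped each other. At 24 h it was at 0.210, 0.685 and 0.377 TPM with anti-CD40, 0.191, 0.0364 and 0.0278 with IL-4, 0.228, 0.191 and 0.101 with IL-21, and 0.284, 0.342 and 0.338 with both. No cytokine made a called difference to Klf4 in any of the 8 comparisons, at levels where the log2(TPM + 1) scale compresses differences. With a pseudocount of 0.1, Klf4 was called lower with IL-4 at 24 h (-1.51, adjusted p = 0.0077), higher with IL-21 added to IL-4 (1.29, adjusted p = 0.0263), and for the interaction of the cytokines at 24 h (2.16, adjusted p = 0.0324).

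Klf6, a widely expressed KLF factor, was the most reproducible of the 10 genes in naive cells, at 155, 146 and 152 TPM. After 6 h it was at 25.3, 29.4 and 28.9 TPM with anti-CD40, 31.7, 33.9 and 32.8 with IL-4, 38.8, 39.8 and 42.5 with IL-21, and 34.7, 40.9 and 34.5 with both. All were below naive, and anti-CD40 alone was the lowest, apart from the other 3 groups. At 24 h the order was another: 24.2, 19.0 and 27.5 TPM with anti-CD40, 16.4, 15.8 and 14.6 with IL-21, 11.7, 12.4 and 12 with both, and 9.85, 5.39 and 4.62 with IL-4. None of these 4 groups overlapped. The IL-4 group at 24 h had 4.38% of the naive mean, a difference of -4.38 ± 0.18 (adjusted p = 2.12e-14).

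The cytokine effects on Klf6 depended on the time and on each other. IL-21 added to anti-CD40 gave 0.52 ± 0.18 at 6 h (adjusted p = 0.0616, and with rescaling 0.40, adjusted p = 0.0252) and -0.55 ± 0.18 at 24 h (adjusted p = 0.0283), the latter lost without any IL-21 24 h library or without replicate 1 or 3 of anti-CD40 at 24 h (-0.69 to -0.43). The change between the times was called, at -1.07 ± 0.25 (adjusted p = 0.0142). IL-21 added to anti-CD40 and IL-4 raised Klf6 at 24 h, by 0.83 ± 0.18 (adjusted p = 0.00233), and no single library ended that call. The interaction at 24 h was 1.38 ± 0.25 (adjusted p = 0.00163). With only the groups compared in the fit these were not called (adjusted p = 0.188 and 0.0773). IL-4 lowered Klf6 by -1.73 ± 0.18 at 24 h (adjusted p = 2.23e-07), against -0.35 in the presence of IL-21 (adjusted p = 0.317).

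Of the 13 tested other KLF and SP genes, 6 rose and none fell when IL-21 was added to IL-4 at 24 h, and 7 fell and none rose when IL-4 was added to anti-CD40, beside the same all-gene shares as for the EGR partners. With rescaling 4 rose and none fell in the first and 6 fell and none rose in the second, and without the 2 replicate 1 libraries 8 rose and 11 fell. The all-gene shares in these settings are also those given for the EGR partners. Among them were Klf13, at -2.21 with IL-4 and 2.10 (adjusted p = 8.34e-06) with IL-21 added to IL-4, and the quiescence factor Klf2, at 2.67 (adjusted p = 2.68e-06) with IL-21 added to IL-4. Klf2 had a naive mean of 528 ± 205 TPM and 31.2 TPM after 6 h with anti-CD40.

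Ier2, which encodes a small nuclear protein, had the highest mean TPM of the 10 genes in every cultured group. It was at 194, 124 and 107 TPM in naive cells. After 6 h it was at 45.2, 33.9 and 36.8 TPM with anti-CD40, 63.7, 54.1 and 56.6 with IL-4, 69.0, 52.9 and 67.7 with IL-21, and 68.6, 63.4 and 42.5 with both. All were below naive, and the IL-4 and IL-21 groups lay above anti-CD40 alone. The IL-21 difference at 6 h was 0.70 ± 0.27 (adjusted p = 0.0997), and with the replicate number as a block it was called (adjusted p = 0.0253), as it was with rescaling (0.58, adjusted p = 0.0151). At 24 h the values were 53.6, 35.5 and 49.4 TPM with anti-CD40, 43.4, 20.4 and 18.1 with IL-4, 49.0, 47.3 and 35.7 with IL-21, and 31.2, 30.4 and 28.0 with both. IL-4 lowered it at 24 h by -0.82 ± 0.27 (adjusted p = 0.0217), with overlap through replicate 1 of IL-4, and the call was lost without replicate 2 or 3 of IL-4 or replicate 1 or 3 of anti-CD40 (-1.20 to -0.59).

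Dusp1 was at 72.6, 50.5 and 55.1 TPM in naive cells and at 6.79, 4.68 and 5.84 TPM after 6 h with anti-CD40, a difference of -3.15 ± 0.23 (adjusted p = 4.81e-10). With IL-4 it was at 2.82, 2.18 and 1.99 TPM, with IL-21 at 4.54, 3.41 and 5.58, and with both at 3.07, 2.52 and 1.54. The IL-4 libraries all lay below those of anti-CD40 alone, and IL-4 lowered Dusp1 by -1.02 ± 0.23 at 6 h (adjusted p = 0.00795), a call lost without replicate 1 of anti-CD40 or replicate 3 of IL-4 at 6 h (-1.14 to -0.91). At 24 h Dusp1 was at 3.18, 3.03 and 3.89 TPM with anti-CD40, 0.958, 0.597 and 0.647 with IL-4, 4.11, 3.93 and 2.97 with IL-21, and 0.942, 2.18 and 1.19 with both. The groups with IL-4 lay below those without it. The IL-4 difference was -1.33 ± 0.23 (adjusted p = 0.000152), and -0.96 ± 0.23 in the presence of IL-21 (adjusted p = 0.00985), the latter lost without replicate 1 of IL-21 or of both cytokines at 24 h (-1.17 to -0.81). Dusp1 was the only one of the 10 genes called lower at both times when IL-4 was added to anti-CD40 alone.

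Other feedback genes of the ERK pathway went their own ways. Dusp5, a nuclear phosphatase for ERK, had a naive mean of 4.24 ± 1.18 TPM and reached 190.4 ± 26.0 TPM with both cytokines at 6 h, a difference of 5.21 (adjusted p = 1.26e-12). Dusp6, its counterpart in the cytoplasm, differed by -4.45 in the same comparison. Of 16 tested genes of this list, 2 rose and 1 fell with IL-4 at 6 h, and none rose and 7 fell at 24 h, where 4.04% and 31.4% of all genes changed. With IL-21, 7 rose and 2 fell at 24 h, led by Spry1 at 1.71 and Spry2 at 1.48, and 6 rose and none fell when IL-21 was added to IL-4. Over all tested genes 17.8% rose and 6.33% fell with IL-21 at 24 h, and 21.8% rose and 2.39% fell with IL-21 added to IL-4. With rescaling 2 rose and 3 fell with IL-4 at 6 h, and the counts at 24 h were 2 up and 6 down with IL-4, 6 up and 3 down with IL-21, and 5 up and 2 down with IL-21 added to IL-4. Among all calls with rescaling, 44.1% were higher with IL-4 at 6 h. At 24 h 54% were higher with IL-4, 54.8% with IL-21 and 46.3% with IL-21 added to IL-4. In the last comparison 9 rose without the 2 replicate 1 libraries, beside the all-gene share given for the EGR partners without them.

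Counted over the 10 genes, the IL-21 comparisons gave few calls. At 6 h with anti-CD40, Egr2 and Nr4a3 rose and none fell, where 12.1% of all genes changed. Nr4a2 also passed the threshold but is left out of this count, since only its IL-21 libraries brought it into the test. With IL-4 present at 6 h no gene was called by limma, where 2.54% of all genes changed, and 2 genes, Egr2 and Egr3, had an unadjusted p below 0.05. At 24 h, Klf6 fell and none rose with anti-CD40 (24.2% of all genes changed), and Egr2, Egr3 and Klf6 rose with anti-CD40 and IL-4 (24.2%). The medians over the 10 genes at 24 h, 0.15 and 0.39, were beside medians over all genes of 0.23 and 0.38. That shift of all genes depends on the scaling. With rescaling the all-gene median became 0.00 and -0.01, the shares of higher genes among all calls went from 73.8% to 54.8% and from 90.1% to 46.3%, and none of the 3 calls with IL-4 at 24 h was kept, with Egr2 at 1.15 (adjusted p = 0.073), Egr3 at 0.57 (adjusted p = 0.0595) and Klf6 at 0.32 (adjusted p = 0.0606). Under this rescaling these 3 genes therefore did not pass the test, and the source of the shift of all genes was not tested. Without naive replicate 1 and IL-4 24 h replicate 1 these 3 were larger, at 2.10, 1.60 and 1.12, and Egr1 (1.09, adjusted p = 0.000374) and Ier2 (0.61, adjusted p = 0.0168) were also called. At 6 h with anti-CD40, Ier2 (adjusted p = 0.00978) and Klf6 (adjusted p = 0.00411) were then called higher with IL-21. Of the 45 other immediate early genes, 11 rose and 1 fell with IL-21 at 6 h, and 13 rose and 6 fell at 24 h, with Jun at 2.65 (adjusted p = 1.33e-06) and 4.29 (adjusted p = 3.55e-10).

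The IL-4 comparisons gave more calls at 24 h. At 6 h Egr2 rose and Dusp1 fell with anti-CD40 (4.04% of all genes changed), and Egr2 rose in the presence of IL-21 (4.16%). At 24 h, 7 genes fell (Egr1, Egr3, Nr4a1, Nr4a3, Klf6, Ier2 and Dusp1) and Egr2 rose with anti-CD40, where 31.4% of all genes changed. In the presence of IL-21, 5 fell (Egr1, Egr3, Nr4a1, Nr4a3 and Dusp1) and Egr2 rose, where 6.75% changed. The medians over the 10 genes at 24 h were -1.08 and -0.63, beside -0.31 and -0.14 over all genes. With rescaling, the all-gene median for IL-4 at 24 h moved to -0.00 and the share of higher genes among all calls from 26.4% to 54.0%, and of the 8 calls that of Ier2 was lost (-0.36, adjusted p = 0.0815). With only the groups compared in the fit, 3 of the 8 calls were kept (Nr4a1, Klf6 and Dusp1), and Egr1, Egr2 and Egr3 were just short of the threshold (adjusted p = 0.0631, 0.0613 and 0.0625). In the presence of IL-21 such a fit kept 2 of the 6, Egr1 and Nr4a1. Without naive replicate 1 and IL-4 24 h replicate 1, all 8 calls of IL-4 at 24 h were kept, with larger falls of Egr1 (-2.26), Egr3 (-2.46), Nr4a1 (-2.57), Nr4a3 (-0.88), Klf6 (-2.02), Ier2 (-1.20) and Dusp1 (-1.42) and a rise of Egr2 that was still called (adjusted p = 0.0181). Of the 45 other immediate early genes, 5 rose and 18 fell with IL-4 at 24 h, with a median of -0.41.

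**Figure D3:**
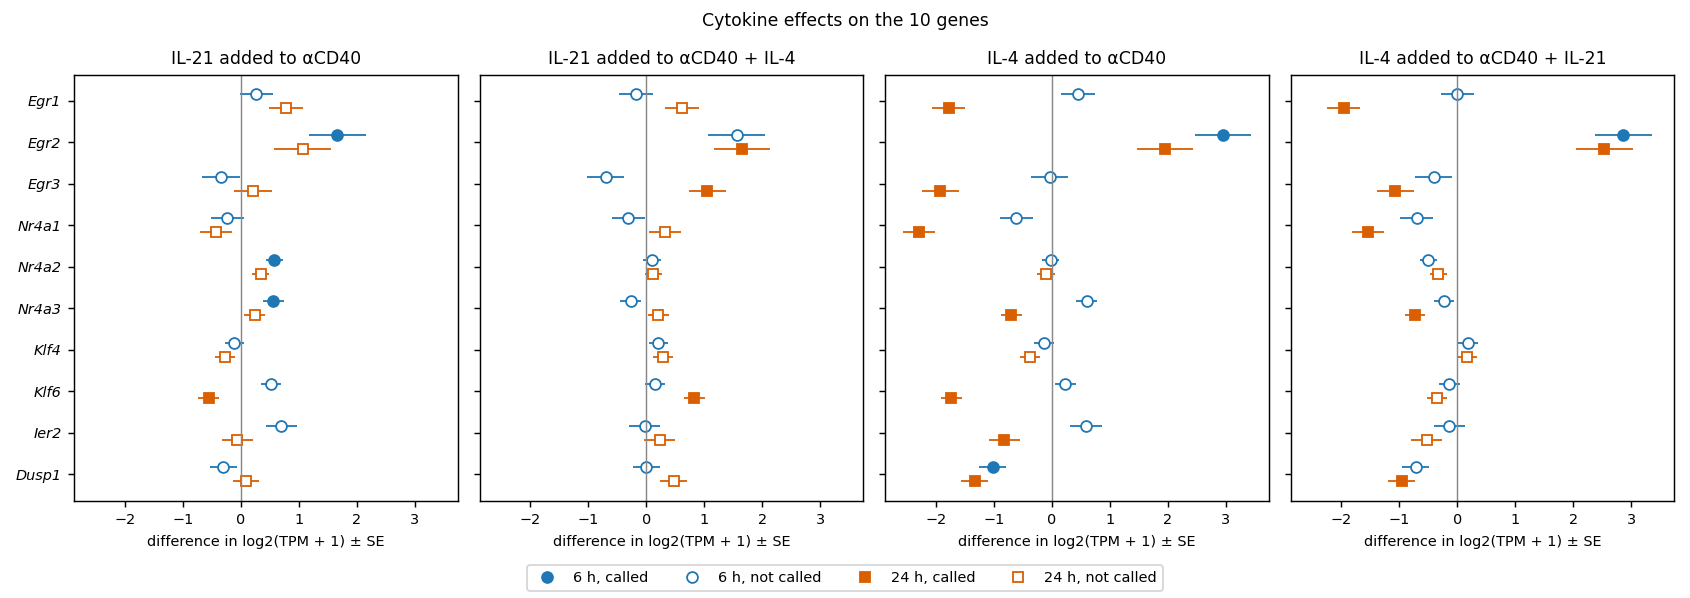
Difference in log2(TPM + 1) made by adding IL-21 or IL-4 to anti-CD40, without or with the other cytokine, for each of the 10 genes: circles are 6 h, squares 24 h, bars are the SE of the fit, and filled symbols passed an adjusted p below 0.05 (Nr4a2 with IL-21 at 6 h entered the test through that group). Egr2 lies to the right of 0 in all 4 panels, while Egr1, Egr3, Nr4a1, Nr4a3 and Dusp1 lie to the left at 24 h in both IL-4 panels.

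Departure from additivity of the cytokines (their interaction) was called for none of the 10 genes at 6 h by limma, where 0.412% of all genes were called. Of the 10, Nr4a3 had an unadjusted p below 0.05. Nr4a2 is left out here, since the comparison holds the IL-21 6 h group that brought it into the test. At 24 h it was called for Klf6 alone, where 5.80% of all genes were called. Without replicate 1 of naive cells and of IL-4 at 24 h, the interaction for Egr3 at 24 h was 1.38 (adjusted p = 0.00471), against 0.84 ± 0.45 (adjusted p = 0.305) with them, that for Nr4a1 was 1.03 (adjusted p = 0.044) against 0.75 ± 0.40 (adjusted p = 0.298), and that for Klf6 was 1.67. From 6 h to 24 h, Egr1 and Egr3 rose and 3 genes fell with anti-CD40 (24.3% of all genes changed), and the same 2 rose with IL-21 (35.5%), where 4 fell beside Nr4a2, which had entered the test through the 6 h group. With IL-4 none rose and 7 fell (25.4%), and with both cytokines Egr3 rose and 6 fell (30.2%). Nr4a1, Nr4a3 and Klf4 fell in all 4 stimulations, Klf4 with anti-CD40 alone only just (-0.48, adjusted p = 0.0444). Without the 2 replicate 1 libraries, Egr2 (-1.54, adjusted p = 0.0177) and Egr3 (-0.64, adjusted p = 0.0376) also fell with IL-4, Ier2 with IL-21 (-0.52, adjusted p = 0.0259) and Dusp1 with anti-CD40 alone (-0.63, adjusted p = 0.031).

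The effects of the cytokines changed between the times for several genes. The change of the IL-21 effect was called for Klf6 with anti-CD40, where 4.44% of all genes were called, and for Egr3 with IL-4 present, at 1.76 ± 0.45 (adjusted p = 0.028), where 4.24% were called. The Egr3 value ranged from 1.43 to 2.30 when single libraries were left out, and 8 of them ended the call. The all-gene count behind this share, 515, ranged from 260 to 3406 in the same way and was 3912 without naive replicate 1 and IL-4 24 h replicate 1. The change of the IL-4 effect was called, with a negative sign, for Egr1, Egr3, Nr4a1, Nr4a3, Ier2 and Klf6 with anti-CD40, where 7.19% of all genes were called (873, with 402 to 3884 over single libraries left out and 4397 without those 2), and for Egr1 with IL-21 present, where 1.18% were. With only the groups compared in the fit, 2 of the 6 were kept, Egr1 and Klf6. Among these the Klf6 change was -1.96 ± 0.25 (adjusted p = 9.4e-05). For Egr3 it was -1.88 ± 0.45 (adjusted p = 0.015), lost without replicate 3 of anti-CD40 or replicate 2 or 3 of IL-4 at 24 h (-2.42 to -1.55), and for Ier2 -1.41 ± 0.38 (adjusted p = 0.0264), lost without any of 7 libraries (-1.79 to -1.18). Without the 2 replicate 1 libraries, the same comparison of the IL-21 difference between times, in cells that also had IL-4, gave 2.30 for Egr3 and was also called for Egr1 (1.28, adjusted p = 0.003), Klf6 (0.96, adjusted p = 0.000615) and Nr4a3 (0.65, adjusted p = 0.0481).

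Across libraries some of the 10 genes moved closely together. Correlations of log2(TPM + 1) over the 27 libraries are given as descriptions, since libraries of a group share their condition and genes of a library share its RNA. Nr4a1 and Klf6 had a Pearson r of 0.92, and 0.90 over the 24 cultured libraries. Egr1 and Egr3 had 0.87, and 0.88 over the cultured libraries. Klf4 and Dusp1 had 0.93 over all libraries but 0.54 over the cultured ones, so that much of their likeness lay in the step from naive cells. Nr4a3 was the reverse, with 0.47 to Nr4a1 over all libraries and 0.86 over the cultured ones. Egr2 had values from -0.43 to 0.23 with the other 9 genes.

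**Figure D4:**
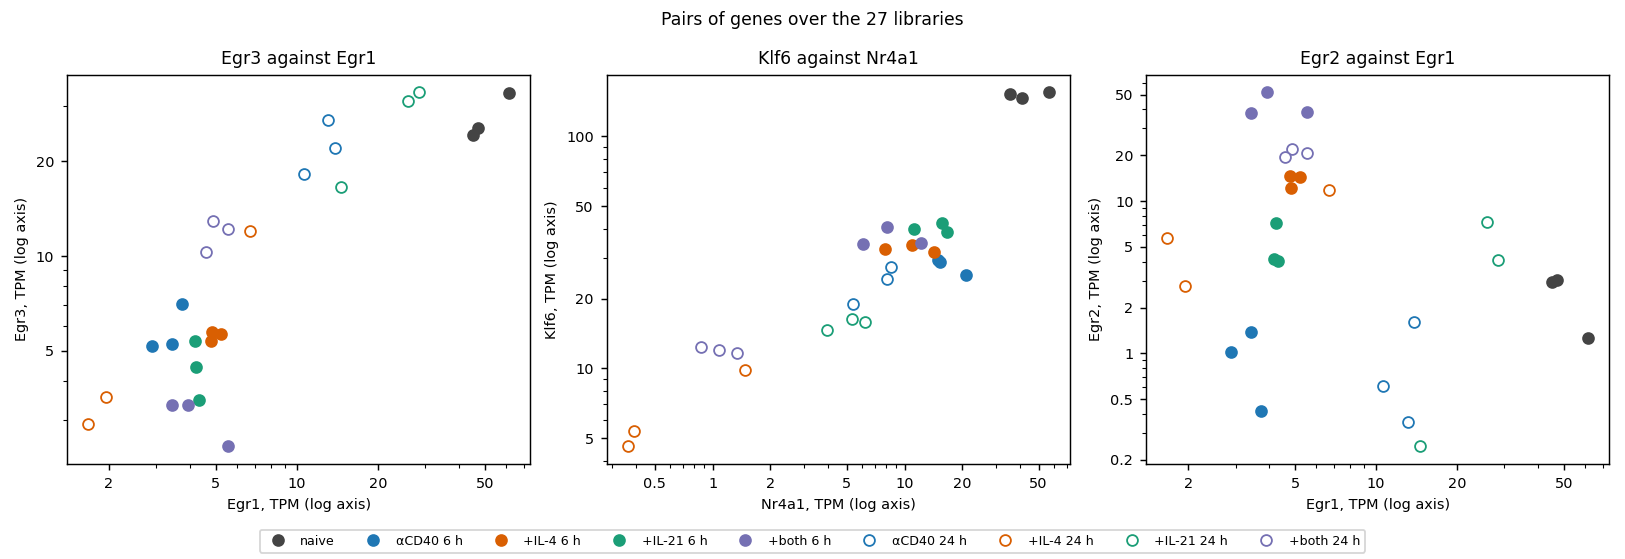
TPM of Egr3 against Egr1, Klf6 against Nr4a1 and Egr2 against Egr1 in the 27 libraries (log axes; colours are the 9 groups, filled for naive cells and 6 h, open for 24 h). Egr3 and Klf6 rise along their partners over the cultured libraries, whereas Egr2 is highest, at 37.9 to 51.8 TPM, where Egr1 is at 3.43 to 5.52 TPM.

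Among 8137 protein-coding genes compared, those most like Egr1 over the 27 libraries were Spns2 (Pearson r = 0.933, Spearman rho = 0.763), Prkce (0.916 and 0.863) and Acp5 (0.912 and 0.734). The genes most like Nr4a1 were Hist2h2aa1 (Pearson r = 0.961, Spearman rho = 0.965), Chmp1b (0.939 and 0.918) and Pnrc1 (0.936 and 0.873). For Klf6 the first and second were the same, Hist2h2aa1 (0.943 and 0.863) and Chmp1b (0.932 and 0.874), followed by Rhob (0.931 and 0.784). The genes given for Dusp1 are Ifi213 (0.951 and 0.803) and Hspa1b (0.948 and 0.753). All of these values include the step from naive to cultured cells.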

How the data were processed

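RNA was sequenced from 27 libraries in 9 groups of 3. The authors' deposited table gives TPM per gene, quantified with Salmon 1.9.0 on GRCm38/mm10 per the submitters' processing notes. TPM removes depth and length, so read depth and counting error are unknown, and a large change in a few abundant genes moves all others. Groups were taken from the sample labels. Tests used limma 3.58.1 in R 4.3.3 with a variance trend on log2(TPM + 1), 1 mean per group over all libraries, 18 residual degrees of freedom, and Benjamini-Hochberg adjustment over the 12147 genes that reached 1 TPM in 3 or more libraries. The procedure was tested on simulated data. All 10 members are named. Other genes are named from lists (at most 4 called genes of largest change per list and comparison, or genes set beside a member) or as the 3 most correlated genes, of which 1 is not reported here. The members and lists were chosen with earlier results of these data known. Promoter windows came from RefSeq, and motifs were searched only in the 250 bases before the start. Alternatives were other pseudocounts, filters, rescaling, a replicate block, fits of only the groups compared and libraries left out. The other gene lists were recounted with rescaling and without 2 replicate 1 libraries, a choice made after seeing the data. Same-numbered replicates deviated together in every pair (correlation over 0.1) in 4 comparisons, the addition of IL-21 at 6 h without IL-4 (0.186 to 0.335) and with it (0.183 to 0.377), the addition of IL-4 at 6 h (0.107 to 0.382), and the 24 h IL-4 group against naive cells (0.108 to 0.407), although no label pairs them.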

Additional observations from a re-analysis of the deposited data

Results flagged for a closer look

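For the results here the size of an effect differed between the cytokine conditions or between 6 h and 24 h, by a test of that difference itself, given as a log2(TPM + 1) difference from limma with its adjusted p. The effect of IL-21 on Klf6 at 24 h differed with IL-4 present, by 1.38 (adjusted p = 0.00163). The effect of IL-21 on Klf6 with anti-CD40 alone changed from 6 h to 24 h by -1.07 (adjusted p = 0.0142), and that on Egr3 with IL-4 present by 1.76 (adjusted p = 0.028). Added to anti-CD40, IL-4 had an effect that changed from 6 h to 24 h for Egr1 by -2.23 (adjusted p = 0.00265), for Egr3 by -1.88 (adjusted p = 0.015), for Nr4a1 by -1.68 (adjusted p = 0.013), for Nr4a3 by -1.29 (adjusted p = 0.0051), for Ier2 by -1.41 (adjusted p = 0.0264) and for Klf6 by -1.96 (adjusted p = 9.4e-05). With IL-21 present, the effect of IL-4 on Egr1 changed by -1.95 (adjusted p = 0.0133). These comparisons share libraries, and replicate 1 of IL-4 at 24 h, the highest library of its group for 9 of the 10 genes, enters 8 of the 10.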

How the results depend on the processing

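Over 260 results of the 10 genes and 36 alternatives, 8920 of 9204 values kept their direction and side of the threshold, 189 lost the call, 95 gained it and 0 reversed; the causes were not tested. The counts of called genes include Nr4a2 with IL-21 at 6 h. The IL-21 or IL-4 change is that of the cytokine's effect between 6 h and 24 h. With only the groups compared in the fit, the number of the 10 genes called went from 7 to 3 for IL-4 from 6 h to 24 h, from 6 to 2 for the IL-4 change, from 3 to 0 for IL-21 with IL-4 at 24 h, from 1 to 0 for IL-21 at 24 h, for the interaction at 24 h and for the IL-21 change with IL-4, from 0 to 1 for IL-21 with IL-4 at 6 h, from 8 to 3 for IL-4 at 24 h and from 6 to 2 for IL-4 with IL-21 at 24 h; fewer residual degrees of freedom enter these fits. Rescaling gave 2 for the IL-21 change, 0 for IL-21 with IL-4 at 24 h and 1 at 6 h, 2 for IL-21 at 24 h, 2 for IL-4 with IL-21 at 6 h and 4 for IL-4 at 6 h. Another pseudocount gave 2 for IL-21 at 24 h, 1 for IL-21 at 6 h and 2 for the interaction at 24 h. A 5 TPM filter gave 1 for IL-21 at 6 h, no filter gave 0 for the IL-21 change with IL-4 and 2 for IL-4 with IL-21 at 6 h, and leaving out mitochondrial, ribosomal and pseudogenes gave 2 for the last. Without replicate 1 of naive cells and of IL-4 at 24 h the counts were 4 for the IL-21 change with IL-4, 5 for IL-21 with IL-4 at 24 h, 2 for IL-21 at 24 h, 5 for IL-21 at 6 h and 3 for the interaction at 24 h. Leaving out single libraries gave 0 to 3 for the IL-21 change with IL-4, 0 to 1 for that of IL-4 with IL-21, 1 to 5 for IL-21 with IL-4 at 24 h and 0 to 1 at 6 h, 0 to 2 for IL-21 at 24 h and 0 to 5 at 6 h, 1 to 2 for IL-4 with IL-21 at 6 h, 1 to 3 for IL-4 at 6 h and 1 to 2 for the interaction at 24 h. Over all genes, fits of only the groups compared gave 522 calls in place of 3091 for IL-4 from 6 h to 24 h, 2167 in place of 3252 for anti-CD40 and 2776 in place of 5129 for IL-4 against naive cells at 24 h, 342 in place of 2941 for IL-21 with IL-4 at 24 h, 913 in place of 3816 for IL-4 at 24 h, 504 in place of 820 and 174 in place of 505 for IL-4 with IL-21 at 24 h and 6 h, 289 in place of 705 for the interaction at 24 h, 198 in place of 873 for the IL-4 change and 206 in place of 515 for the IL-21 change with IL-4. Rescaling gave 806 for the last, 1697 for the IL-4 change, 546 in place of 308 for IL-21 with IL-4 at 6 h, 758 in place of 491 for IL-4 at 6 h and 1357 for the interaction at 24 h. No filter gave 3212 in place of 1471 for IL-21 at 6 h, 1346 and 1778 for IL-4 with IL-21 at 24 h and 6 h, 572 for the IL-4 change and 219 in place of 50 for the interaction at 6 h. A 5 TPM filter gave 250 for IL-4 with IL-21 at 6 h and 23 for the interaction at 6 h, and a pseudocount of 0.1 gave 24 for the latter and 80 in place of 143 for the IL-4 change with IL-21. Without replicate 1 of naive cells and of IL-4 at 24 h the all-gene counts were 5089 for IL-4 from 6 h to 24 h, 5890 for IL-21 with IL-4 at 24 h and 561 at 6 h, 2250 for IL-21 at 6 h, 5964 and 761 for IL-4 at 24 h and 6 h, 1260 for IL-4 with IL-21 at 24 h, 3023 and 91 for the interaction at 24 h and 6 h, 4397 for the IL-4 change, 255 for it with IL-21, 1032 in place of 539 for the IL-21 change and 3912 for it with IL-4. Leaving out mitochondrial, ribosomal and pseudogenes gave 1677 for the IL-4 change, 1135 for the interaction at 24 h and 86 at 6 h. The replicate block gave 2 for IL-21 at 24 h, adding Egr1 (adjusted p = 0.041), and called Dusp1 from 6 h to 24 h with anti-CD40 (adjusted p = 0.0437); it changed no other call of the 10 genes beyond those of Ier2 and Nr4a3 with IL-21 at 6 h, and gave 96 interaction calls over all genes at 6 h. Of 27 libraries, 23 deviated most like libraries of their own number.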
